A study of Mus musculus with 32 samples.

Results

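The chromatin regions described here were open in the lymph node resident type 2 conventional dendritic cell (cDC2) and in its migratory counterpart (migDC2), and closed or under the calling threshold in both subsets of the cDC1 lineage. Peaks of the 32 deposited lists were merged into consensus regions, stretches of 100 bp or more where 3 or more lists had a peak. A library counted as having a region (a call) if 50% or more of either the region or one of its peaks was shared. Members were autosomal regions called in at least 5 of 6 libraries of migDC2 with floxed Ifngr1 alleles and at least 5 of 6 of cDC2, and in at most 1 of 4 of migDC1 and at most 1 of 6 of cDC1. The rule found 374 of 88757 autosomal regions, which is 0.421%. Members were thus selected on the calls in these 4 subsets, which are given as a description without a test.

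Open chromatin was mapped by Omni-ATAC-seq, a transposase assay that tags accessible DNA with sequencing adapters, in dendritic cells (DC) from skin-draining lymph nodes of mice. The floxed mice had loxP-flanked Ifngr1 alleles and either carried Cre recombinase under the CD11c promoter (CD11cCREpos/IFNgr1flfl, Cre-positive) or lacked Cre (CD11cCREneg/IFNgr1flfl, Cre-negative). There were 3 libraries per genotype of DN migDC, migDC2, cDC2 and cDC1, and 2 per genotype of migDC1. DN migDC are migratory cells whose source names give both CD11b and CD103, where migDC2 carry the first and migDC1 the second; the labels do not spell out DN. Another 4 migDC2 libraries came from germline knockout (IFNgr1-/-, KO) and wild-type (WT) mice, 2 of each, and are called germline migDC2 here. Interferon-γ binds the receptor chain that Ifngr1 encodes. CD11c is not restricted to DC, and the files do not show how completely Cre removed the floxed allele in each subset. The labels give no age, sex or strain of the mice, and nothing in them says that the libraries of a group came from separate mice, so p-values measure only the spread between these libraries.

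Conventional DC fall into a cDC1 lineage, known for cross-presentation to CD8 T cells, and a cDC2 lineage, known for presentation to CD4 T cells and marked by CD11b and SIRPα. Cells of both lineages mature in the skin and travel through lymph vessels to the draining node, where they join DC that live there. Accessible stretches away from gene starts often hold enhancers, the DNA elements by which transcription factors set a lineage's gene programme.

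The lists held 32705 to 75106 peaks (median 58610.5). Germline migDC2 lists were the shortest, with 32705 to 42499 peaks, whereas DN migDC lists had 57013 to 75106, floxed migDC2 lists 54704 to 74361 and cDC2 lists 38571 to 56236. Library titles came in a plain numbered style for all cDC2 and cDC1 libraries and a lettered style for all migDC1 libraries, and each genotype of migDC2 and DN migDC had 1 plain and 2 lettered titles. The highest peak signal was 50787 to 180982 in plain and 33127 to 84217 in lettered libraries of all subsets. Among migDC2 and DN migDC libraries, which have both styles, the ranges overlapped, with 50787 to 75798 in plain and 44114 to 84217 in lettered ones. Title style and subset cannot be told apart between cDC2 and migDC1, which have 1 style each. The library of migDC1 Cre-negative replicate 1 stood apart, with 45.3% of all autosomal regions called against 59.0% to 60.9% in the other migDC1 libraries, and it held none of the members; without it the rule found 375 regions, which include all 374 members. As a check of the labels, regions at 8 defining cDC1 genes followed the label, since 57 of 171 were called in at least 5 of 6 cDC1 and at most 1 of 6 cDC2 libraries and 1 of 171 the other way round. Regions at 8 defining cDC2 genes did not separate the residents as clearly, with 6 of 73 called in cDC2 and not cDC1 and 5 of 73 the other way round. Regions of Klf4, Cd209a, Itgam (which encodes CD11b) and Mgl2 gave none on the cDC2 side, and 1 of the 73, near Clec4a4, was a member.

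Only a few members lay at a gene start, and RefSeq promoter windows (250 bases before to 50 bases after a start, GRCm38.p6, the assembly behind mm10) overlapped members in 21 cases. The windows of 6 genes are shown as examples. They were picked and need not represent the 21. Members cover only 180 of the 300 bases of the Zeb2 window and 217 of those of the Siglece window. Fcgr3 encodes a low-affinity receptor for IgG, Siglece an inhibitory receptor for sialic acid, Zeb2 a zinc finger transcription factor of cDC2 development and Gda guanine deaminase. C3 encodes complement component 3 and Scel sciellin, a protein of the cornified envelope, and this pair was chosen after their values were seen. All are written 5′ to 3′ on the strand of the gene, with matches to searched motifs in capitals.
Fcgr3, chr1:171059345-171059644, minus strand: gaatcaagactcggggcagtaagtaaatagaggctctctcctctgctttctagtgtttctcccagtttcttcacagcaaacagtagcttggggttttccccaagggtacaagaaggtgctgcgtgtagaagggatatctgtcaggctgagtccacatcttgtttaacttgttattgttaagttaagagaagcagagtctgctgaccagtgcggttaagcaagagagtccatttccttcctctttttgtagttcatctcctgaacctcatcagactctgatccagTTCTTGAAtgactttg
Siglece, chr7:43660112-43660411, minus strand: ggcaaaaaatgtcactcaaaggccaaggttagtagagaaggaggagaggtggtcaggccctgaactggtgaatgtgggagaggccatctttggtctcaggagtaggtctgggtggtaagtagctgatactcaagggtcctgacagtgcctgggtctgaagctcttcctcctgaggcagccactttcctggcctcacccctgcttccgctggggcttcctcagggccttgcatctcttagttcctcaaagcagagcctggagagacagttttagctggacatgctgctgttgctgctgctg
Zeb2, chr2:45117393-45117692, minus strand: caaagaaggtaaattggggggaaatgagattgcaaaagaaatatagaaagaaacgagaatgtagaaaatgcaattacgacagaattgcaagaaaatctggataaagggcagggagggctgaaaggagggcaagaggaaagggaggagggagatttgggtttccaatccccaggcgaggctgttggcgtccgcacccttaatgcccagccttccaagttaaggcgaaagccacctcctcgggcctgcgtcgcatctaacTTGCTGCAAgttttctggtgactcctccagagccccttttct
Gda, chr19:21472612-21472911, minus strand: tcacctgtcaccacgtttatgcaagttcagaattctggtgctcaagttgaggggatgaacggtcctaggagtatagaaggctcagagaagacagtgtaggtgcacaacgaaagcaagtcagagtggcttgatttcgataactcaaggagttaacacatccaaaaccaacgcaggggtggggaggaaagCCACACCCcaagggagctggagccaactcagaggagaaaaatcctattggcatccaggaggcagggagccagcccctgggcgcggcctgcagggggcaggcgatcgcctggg
C3, chr17:57228087-57228386, minus strand: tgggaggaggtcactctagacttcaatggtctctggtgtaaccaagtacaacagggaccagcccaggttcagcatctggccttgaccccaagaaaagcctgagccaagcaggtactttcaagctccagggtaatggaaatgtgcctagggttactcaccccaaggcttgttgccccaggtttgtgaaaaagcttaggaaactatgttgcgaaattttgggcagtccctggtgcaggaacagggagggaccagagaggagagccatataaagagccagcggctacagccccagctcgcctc
Scel, chr14:103513091-103513390, plus strand: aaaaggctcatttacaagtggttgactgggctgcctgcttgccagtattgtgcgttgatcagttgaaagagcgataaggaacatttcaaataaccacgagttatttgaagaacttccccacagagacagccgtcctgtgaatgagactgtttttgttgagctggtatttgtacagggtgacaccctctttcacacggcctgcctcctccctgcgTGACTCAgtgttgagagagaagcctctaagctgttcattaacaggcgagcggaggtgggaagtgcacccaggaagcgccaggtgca
The capitals mark a STAT motif (TTCNNGAA) in the Fcgr3 window, a C/EBP palindrome (TTGCNNCAA) in that of Zeb2, a KLF motif (GGGTGTGG, here on the other strand) in that of Gda and an AP-1 motif (TGANTCA) in that of Scel, where N is any base. The windows of Siglece and C3 held none of the 9 motifs searched on both strands, which also included PU.1 (GAGGAAGT), IRF (GAAANNGAA), RUNX (TGTGGTT), NF-kB (GGGANTTCC) and the E-box (CACGTG). The 4 motifs shown stand in 8.58%, 2.07%, 3.57% and 7.84% of all 31396 autosomal windows, in the order given, and in 9.52%, 9.52%, 4.76% and 9.52% of the 21 windows at members. With 21 windows, each window is worth 4.76%, so these shares rest on 1 or 2 windows each. Some of the 21 overlap each other, as at Gab1 and Fcgr3. The other Fcgr3 window (chr1:171059354-171059653) ends inside the STAT match and held no motif. Motifs in the remaining members were not searched.

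The members are the narrow end of a wider cDC2 set. In the resident cells, 1515 regions were called in at least 5 of 6 cDC2 and at most 1 of 6 cDC1 libraries. Of these, 961 (63.4%) were called in at least 5 of 6 migDC2 libraries, 220 (14.5%) in 2 to 4 and 334 (22.0%) in at most 1. Of the 961, 398 were also called in all 4 migDC1 libraries, 189 in 2 or 3 of them and 374 in at most 1, so the members are 24.7% of the resident cDC2 set. Built the same way from the cDC1 side, 8920 regions were called in at least 5 of 6 cDC1 and at most 1 of 6 cDC2 libraries, 2726 (30.6%) of these in at least 3 of 4 migDC1 and 834 (9.35%) also in at most 1 of 6 migDC2. The cDC1 lists were mostly longer than the cDC2 lists, with 50813 to 69670 against 38571 to 56236 peaks. The migDC1 lists had 45052 to 60398. Whether list length bears on the counts and shares of the 2 sides was not tested. At the edges of the rule, 119 members were called in exactly 5 of 6 cDC2 libraries and 118 regions just outside in 4, with the other criteria met. The same counts were 72 and 64 for migDC2, and for migDC1 81 members were called in 1 library against 72 regions just outside in 2. The rule thus cuts a continuous distribution and finds no gap.

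Members were mostly distant from gene starts. Of the 374, 18 (4.81%) lay within 1000 bp of a RefSeq start, 202 (54.0%) had their midpoint in a gene body, 111 (29.7%) were within 50 kb of a gene and 43 (11.5%) had no protein-coding gene within 50 kb. Over all autosomal regions, 12.4% lay at a gene start, and among the 32737 regions called in both migDC2 and cDC2, 26.8% did. The other sets that differ between subsets were lower still, with 2.84% of the regions called in migDC2 and not in resident cDC2 and 1.92% of those kept by the cDC1 lineage. Their median width was 553 bp, against 1060 bp for regions called in both subsets and 570 bp over all regions. The summits of the peaks stood at nearly the same base in both subsets: the median summit moved by 13.5 bp between migDC2 and cDC2 and by at most 50 bp in 301 members (80.5%), a share close to the 80.8% of all regions called in both. Of the members, 73 (19.5%) had another member within 100 kb, and 17 (4.55%) within 5 kb.

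The members had ranks near the median of all regions and under those open in every subset. The strength of a peak is given as the percentile of its deposited signal within the library's own list, with 100 for the strongest peak. Over the 12 migDC2 and cDC2 libraries the median percentile of a member had a median of 35.0 (quartiles 27.0 and 45.0, range 9.11 to 78.9), and 52 members (13.9%) lay at or above 50. The median was 37.5 over all autosomal regions, 25.5 over regions called in migDC2 and not in resident cDC2, and 71.6 over regions called in all 4 subsets of the rule. Since lists differ in length, equal percentiles do not mean equal accessibility, and the members were also looked up in the 32705 strongest peaks of each library, the length of the shortest list.

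At this equal list length the members were held less often by migDC2 than by cDC2. The 6 floxed migDC2 libraries held 13.6%, 17.9%, 26.5%, 27.3%, 28.6% and 29.4% of the members, and the 6 cDC2 libraries 39.8%, 51.3%, 58.0%, 58.8%, 60.7% and 62.3%. These groups did not overlap, nor did they among the libraries with plain titles, where the pair of migDC2 libraries held 13.6% and 17.9%. Regions called in all 4 subsets were held by 81.8% to 85.0% in migDC2 and 89.5% to 91.8% in cDC2. By member, 4 (1.07%) were held by all 6 migDC2 and at most 1 cDC2 library, 60 (16%) by at most 1 migDC2 and all 6 cDC2 libraries, and 14 (3.74%) by all 12. The same shares were 5.09%, 3.59% and 22.9% over all autosomal regions, and 1.54%, 7.33% and 62.0% over the 32737 regions called in both subsets. Among regions called in both, more were thus held on the cDC2 side than on the migDC2 side also beyond the members. The rule counted calls in the whole lists, and migDC2 lists were mostly longer, so it could admit lower ranks there. Whether this accounts for the gap was not tested. Within the whole lists the members' median percentile was alike, with a median over libraries of 34.1 in migDC2 and 34.2 in cDC2. "Kept after migration" thus describes the presence of a peak in the full lists and not its rank. It compares libraries of separate cell subsets, and no cell was followed through migration. No migDC1 or cDC1 library held a member at this length.

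**Figure D1:**
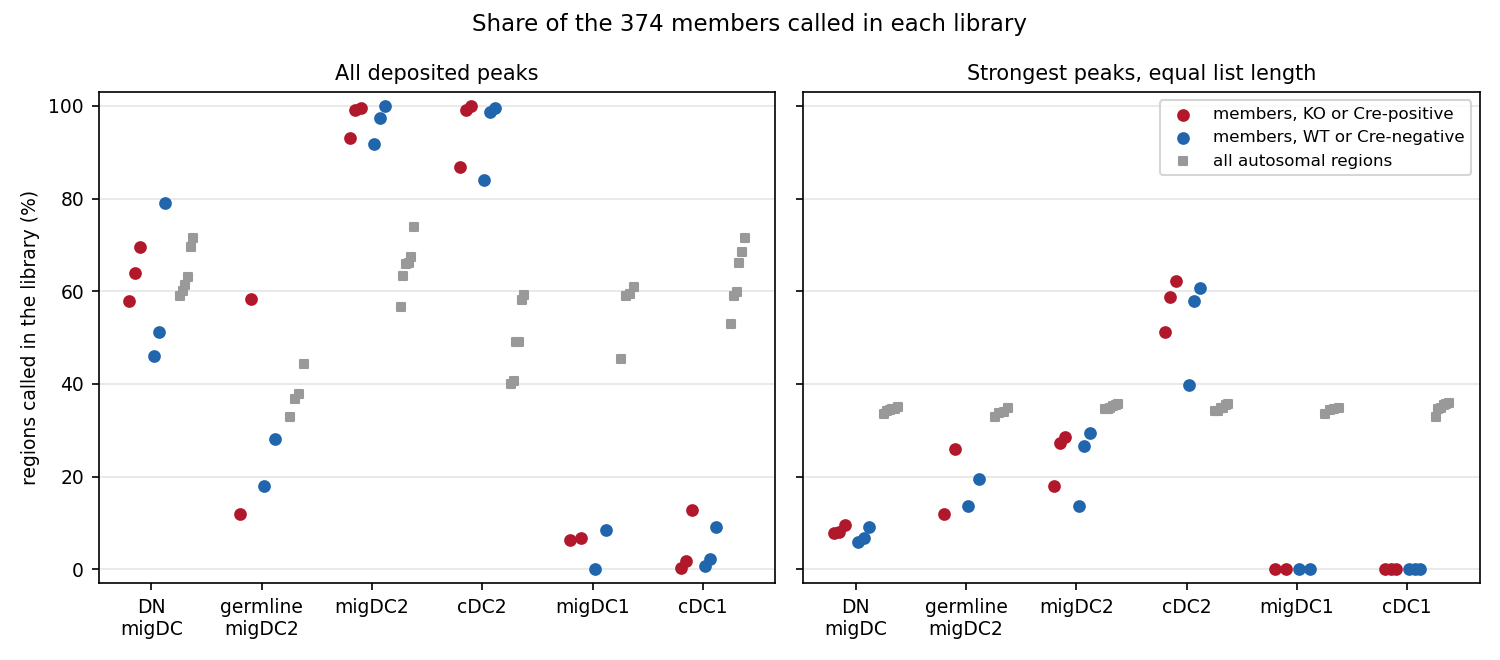
Share of the 374 members called in each library (red, KO or Cre-positive; blue, WT or Cre-negative) and share of all autosomal regions (grey squares), in percent, with all deposited peaks (left) and with the 32705 strongest peaks of each list (right). With all peaks DN migDC libraries lie between 46.0% and 79.1%; at equal length they lie between 5.88% and 9.63%, under the 13.6% to 29.4% of migDC2.

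DN migDC libraries, which the rule did not use, on average called the members no more often than all autosomal regions. The Cre-positive libraries called 57.8%, 63.9% and 69.5% of the members and the Cre-negative libraries 46.0%, 51.1% and 79.1%. The mean was 61.2% ± 12.2 (SD, n = 6), beside 58.9% to 71.5% (mean 64.1%) of all autosomal regions. The member share was above that of all regions in Cre-negative replicate 3 (79.1% against 71.5%) and Cre-positive replicate 2 (63.9% against 63.0%). It was under it in the other libraries, down to 46.0% against 61.4% in Cre-negative replicate 1. The pair with plain titles held 69.5% and 46.0%, and those with lettered titles 51.1% to 79.1%. By member, 104 (27.8%) were called in all 6 DN migDC libraries and 42 (11.2%) in none, against 47.7% and 17.9% of all autosomal regions. Both shares are under the background, so the members spread over intermediate counts more than all regions together. The 2325 regions called in migDC2 but not in resident cDC2, cDC1 or migDC1 did so too, with 17.0% in all 6 and 15.2% in none. The spread is thus not particular to the members. The 834 regions kept by the cDC1 lineage were called in 15.2% to 50.2% per DN migDC library, and each DN migDC library called a larger share of the members than of these. For the 2325 regions called in migDC2 but not in resident cDC2, the share was 38.6% to 70.2%, and here too each library was higher for the members.

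**Figure D2:**
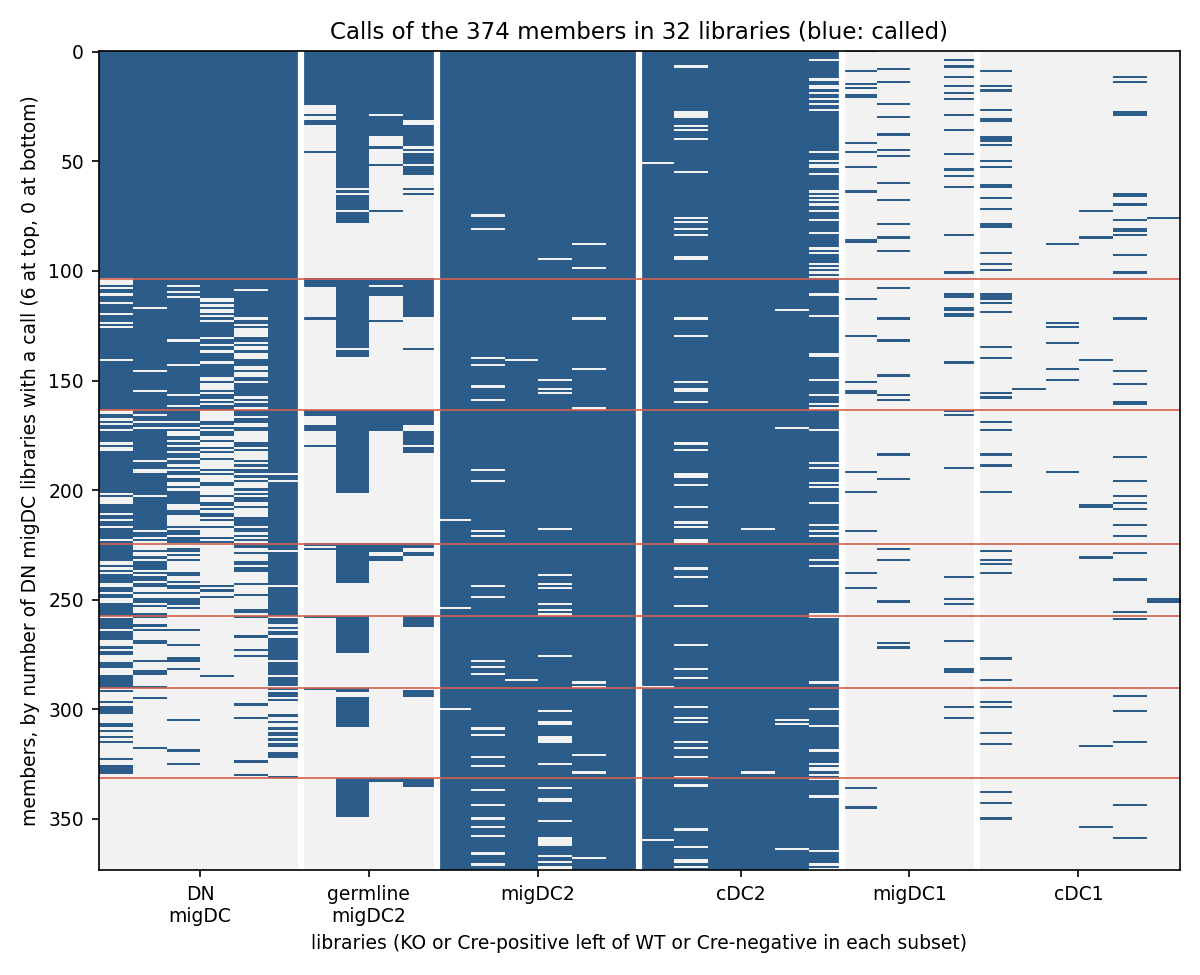
Calls of each member (rows) in each library (columns), blue where called, with members sorted by the number of DN migDC libraries that call them and red lines between these classes. The 104 members at the top are called in all 6 DN migDC libraries and the 42 at the bottom in none.

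**Figure D3:**
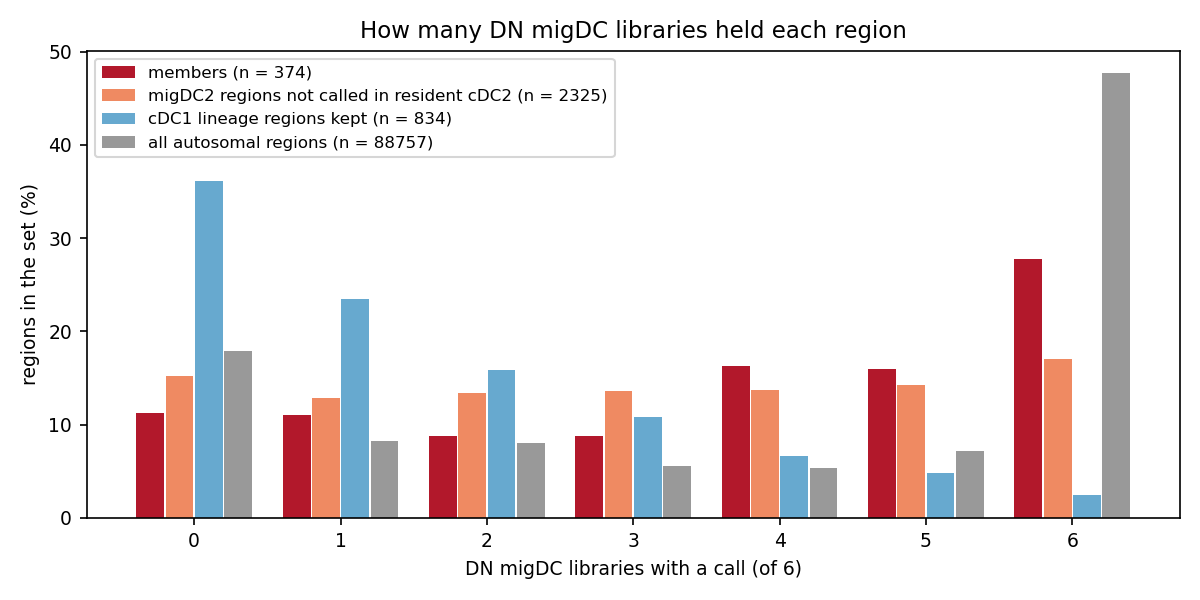
Percent of the regions in a set (vertical axis) by the number of DN migDC libraries that call them (horizontal axis, 0 to 6). For members the bar at 6 is at 27.8%, under the 47.7% of all autosomal regions, and the cDC1 lineage regions pile up at 0 and 1.

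At equal list length DN migDC libraries held fewer of the members than germline migDC2 libraries, and they were under floxed migDC2 libraries, whose calls chose the members, in both kinds of list. The 6 DN migDC libraries held 5.88% to 9.63% of the members (mean 7.84% ± 1.41, SD, n = 6), the 4 germline migDC2 libraries 12% to 25.9%, the 6 floxed migDC2 libraries 13.6% to 29.4% and the 6 cDC2 libraries 39.8% to 62.3%. Every DN migDC library was under every migDC2 library of either cohort. The rule asked for calls in floxed migDC2, the same cell type as germline migDC2, and for none in DN migDC. Shares of all autosomal regions were then alike, at 33.5% to 35.1% in DN migDC, 32.8% to 34.7% in germline migDC2 and 34.5% to 35.7% in floxed migDC2. A member was thus often present in DN migDC as a peak of low rank.

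Members in all 6 and in none of the DN migDC libraries had similar ranks in cDC2 and different ranks in migDC2. The 104 members in all 6 had a median percentile of 46.1 in migDC2 and 33.2 in cDC2, and the 42 members in none had 26.8 in migDC2 and 35.4 in cDC2. Of the 104, 79 (76.0%) were called in at least 1 germline migDC2 library and 25 in all 4, and of the 42, 18 (42.9%) were called in at least 1 and 0 in all 4. These are descriptions, since list ranks in migDC2 took part in the choice of members.

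The strongest members were called in DN migDC and germline migDC2 as well. The strongest of all lay at the edge of Sh2b2 (chr5:136216937-136218468), which encodes an adaptor protein of receptor tyrosine kinase signalling. It was called in 6 of 6 DN migDC, 4 of 4 germline migDC2, 6 of 6 migDC2 and 6 of 6 cDC2 libraries. Its percentile was 66.3 to 83.1 (median 71.5) in DN migDC, 68.1 and 82.3 in germline KO, 64.9 and 69.7 in germline WT, 82.6 to 90.8 (median 86.1) in migDC2 and 58.3 to 75.2 (median 71.8) in cDC2. All 6 migDC2 values lay above all 6 cDC2 values, and at equal list length the region was held by every library of these 4 groups. A region in the gene body of Bub1b (chr2:118601190-118602401), a kinase of the mitotic checkpoint, was as evenly strong, with medians of 69.4 in DN migDC, 72.1 in migDC2 and 74.0 in cDC2. It had 53.6 and 64.0 in germline KO and 50.2 and 52.3 in germline WT. A region in Dpp10 (chr1:123751511-123752482), which encodes a dipeptidyl peptidase-like protein without enzymatic activity, had medians of 78.2 in DN migDC, 77.5 in migDC2 and 67.8 in cDC2. Each of these 3 regions was called in every library of the 4 groups and in at most 1 migDC1 library. Further members in all 6 DN migDC libraries lay 42348 bp from Tex44 (medians of 57.5 in DN migDC, 77.2 in migDC2 and 63.5 in cDC2), in 2310022A10Rik (46.2, 70.9 and 62.6), in Ube2h, a ubiquitin-conjugating enzyme (61.5, 67.6 and 35.2), and at chr4:53227633-53228283 with no gene within 50 kb (52.1, 64.1 and 64.8).

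Other members were absent from all DN migDC lists although they were among the stronger peaks of cDC2. A region 37646 bp from Vegfa (chr17:46070023-46070817), which encodes vascular endothelial growth factor A, was called in 0 of 6 DN migDC, 0 of 4 germline migDC2, 5 of 6 migDC2 and 6 of 6 cDC2 libraries. Its percentile was 20.8 to 56.5 (median 35.2) in the 5 migDC2 libraries and 57.0 to 68.9 (median 63.2) in cDC2, so the groups did not overlap. A region 8042 bp from Parvg (chr15:84351020-84351913), an adaptor between integrins and actin, had the same counts, with 3.49 to 35.3 (median 17.7) in migDC2 and 58.9 to 65.7 (median 63.6) in cDC2. A region in Ninj1 (chr13:49190895-49192185), whose product takes part in plasma membrane rupture, was called in 0 of 6 DN migDC libraries and had medians of 18.4 in 5 migDC2 and 55.8 in 6 cDC2 libraries. For Ell (chr8:70544024-70544701), an elongation factor of RNA polymerase II, the medians were 38.9 and 56.0 in 6 libraries each, with 0 of 6 DN migDC and 2 of 4 germline migDC2 libraries called. At equal list length all 4 regions were held by 6 of 6 cDC2 and at most 1 of 6 migDC2 libraries.

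The few members with the opposite order were chosen after their values were seen. At equal length 4 members were held by 6 of 6 migDC2 and at most 1 of 6 cDC2 libraries. A region in Anxa5 (chr3:36449213-36449834), which encodes a phosphatidylserine-binding protein, was called in 6 of 6 DN migDC, 4 of 4 germline migDC2, 6 of 6 migDC2 and 5 of 6 cDC2 libraries, with medians of 22.4 in DN migDC, 58.1 in migDC2 and 19.9 in cDC2. The others lay in Abca6, a lipid transporter (51.2, 58.9 and 24.6), in Mthfd1, an enzyme of folate metabolism (30.3, 54.6 and 21.2), and at chr10:60938493 with no gene within 50 kb. All 4 were called in 6 of 6 DN migDC libraries.

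Of the genes known from cDC2, 5 had members. The list of 36 cDC2 genes had 266 regions, of which 7 (2.63%) were members, beside 0.421% over all regions and 0 of 427 regions at 30 cDC1 genes. The list was chosen with results of these data known. Membership requires calls in cDC2 and not in cDC1, which 28 of the 266 and 1 of the 427 regions had. The rule thus left almost no room for members at cDC1 genes. No member of the 7 was called in 6 of 6 DN migDC libraries and 3 were called in none. These shares were 27.8% and 11.2% over all members, and 47.7% and 17.9% over all autosomal regions. With 7 regions no difference can be read from this. Clec4a4 encodes DCIR2, an inhibitory C-type lectin of splenic cDC2. A region at its edge (chr6:122989784-122990469) was called in 4 of 6 DN migDC, 0 of 4 germline migDC2, 6 of 6 migDC2 and 6 of 6 cDC2 libraries, with 22.1 to 50.2 (median 33.9) in the DN migDC libraries with a call, 6.48 to 28.8 (median 17.5) in migDC2 and 39.5 to 58.7 (median 49.3) in cDC2. All cDC2 values were above all migDC2 values, and the DN migDC values lay between and across them.

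Plaur encodes the urokinase receptor, which binds the protease that activates plasminogen at the cell surface. Both of its members, in the gene body at chr7:24466722-24467424 and chr7:24469172-24472065, were called in 0 of 6 DN migDC libraries. The first had 13.5 to 47.3 (median 25.7) in 6 migDC2 libraries and 21.1 to 39.4 (median 35.2) in 6 cDC2 libraries. The second had 12.9 to 55.6 (median 38.0) in 5 migDC2 libraries and 37.3 to 64.2 (median 52.9) in 6 cDC2 libraries. Values overlapped between migDC2 and cDC2 at both, and each was called in the same 1 of 4 germline libraries, KO replicate 2. A region in Notch2 (chr3:98027347-98027751), the receptor whose signal splenic cDC2 need, was weaker still, with medians of 22.9 in 5 migDC2 and 12.2 in 5 cDC2 libraries and no call in DN migDC or germline migDC2. The member at the start of Zeb2 (chr2:45116507-45117572), whose promoter is printed above, was called in 5 of 6 DN migDC and 0 of 4 germline libraries. Its percentile was 22.6 to 55.3 (median 25.4) in DN migDC, 5.31 to 45.9 (median 33.2) in migDC2 and 23.3 to 54.5 (median 33.8) in cDC2, with all groups overlapping.

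Fosl2 encodes a subunit of AP-1, the factor of the motif searched in the promoters. One of its members lay 574 bp from the start (chr5:32137046-32137578) and another 36374 bp away (chr5:32194214-32194928). The distal one was called in 5 of 6 DN migDC and 4 of 4 germline migDC2 libraries, and had 53.9 to 66.7 (median 58.6) in migDC2 and 13.9 to 40.7 (median 31.6) in cDC2, which did not overlap. It was held by 6 of 6 migDC2 and 2 of 6 cDC2 libraries at equal length. The one near the start had medians of 23.1 in migDC2 and 24.4 in cDC2, with 1 migDC2 library at 99.2. Over the 12 AP-1 and BATF factor genes, 2 of 129 regions (1.55%) were members, both of them these.

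**Figure D4:**
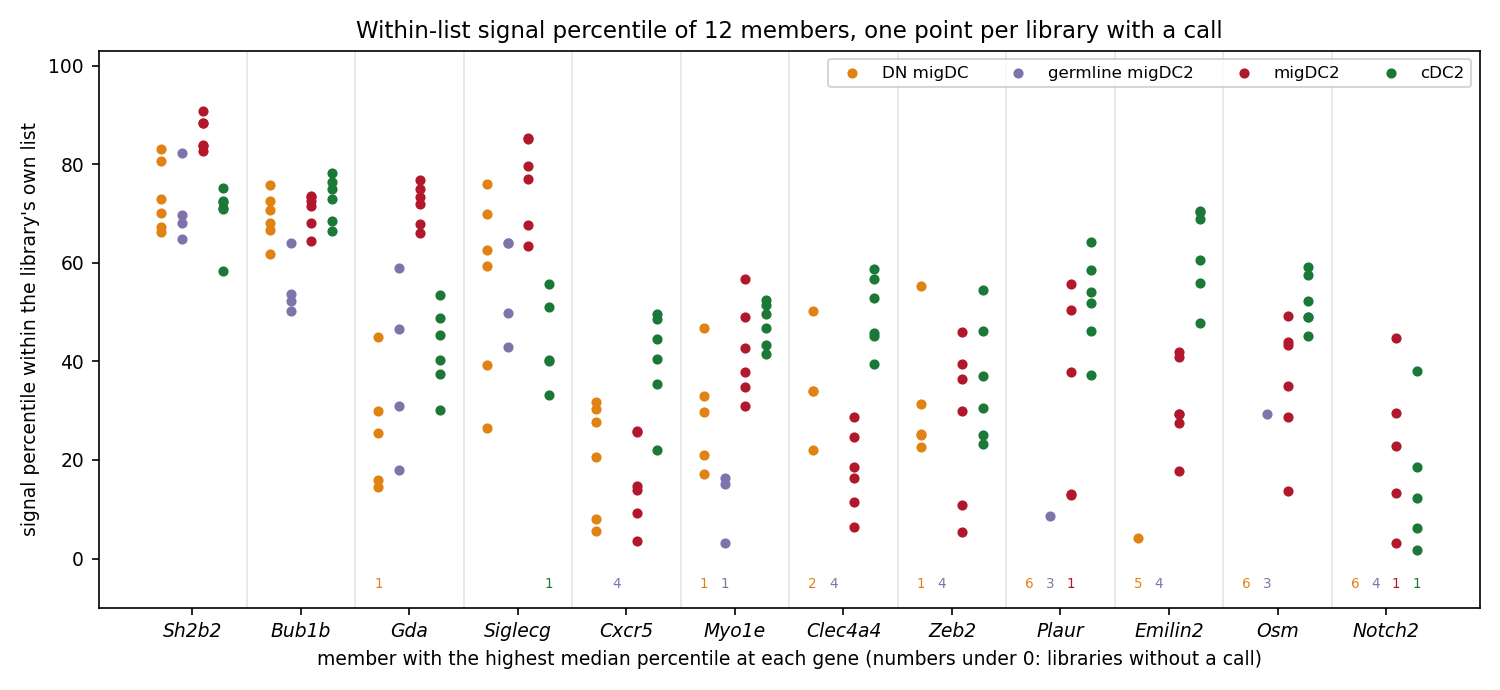
Within-list signal percentile (vertical axis, 0 to 100) of the member with the highest median at each of 12 genes, one point per library with a call, by subset; numbers under 0 count libraries without a call. Sh2b2 and Bub1b are high in all 4 groups, whereas the Plaur, Osm and Notch2 regions have no DN migDC library with a call.

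Among transcription factors of myeloid cells, 6 of 922 regions (0.651%) were members, a share near the 0.421% of all regions. The strongest in migDC2 lay in Nr4a3 (chr4:48059237-48061520), an orphan nuclear receptor needed for DC migration, with 62.2 to 81.2 (median 66.2) in migDC2 and 20.6 to 52.4 (median 39.9) in cDC2. It was called in 5 of 6 DN migDC libraries with a median of 55.0, and in 1 of 4 germline migDC2 libraries, KO replicate 2, at 65.8. A region 26512 bp from Cebpb (chr2:167716944-167717660), a factor of macrophages and neutrophils, was called in 0 of 6 DN migDC libraries and had medians of 28.1 in 5 migDC2 and 39.4 in 6 cDC2 libraries. Members in Etv6, Irf2 and Ets2 had medians of 41.3, 34.7 and 42.2 in migDC2 and 32.8, 23.8 and 46.0 in cDC2, and were called in 3, 1 and 5 of 6 DN migDC libraries.

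Among Fc and paired immunoglobulin receptors, 3 of 166 regions (1.81%) were members. The region 7983 bp from Siglecg (chr7:43399432-43400209), an inhibitory receptor for sialic acid, was called in 6 of 6 DN migDC and 4 of 4 germline migDC2 libraries. It had 26.5 to 75.9 (median 60.9) in DN migDC, 42.9 and 64.1 in germline KO, 49.8 and 64.1 in germline WT, 63.4 to 85.3 (median 78.3) in migDC2 and 33.2 to 55.7 (median 40.2) in 5 cDC2 libraries. Its migDC2 values were all above its cDC2 values. The start of Siglece was called in 6 of 6 DN migDC and 1 of 4 germline libraries, and that of Fcgr3 in 2 of 6 and 1 of 4. Their medians were 46.8 and 37.3 in migDC2 and 28 and 23.3 in cDC2.

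Cytokine genes had 4 members in 530 regions (0.755%). The region in Osm (chr11:4239999-4240900), which encodes the cytokine oncostatin M, had 13.8 to 49.1 (median 39.1) in migDC2 and 45.2 to 59.1 (median 50.6) in cDC2, and was called in 0 of 6 DN migDC libraries. The region in Il10rb (chr16:91415389-91416114), the shared chain of the interleukin-10 receptor, was also called in 0 of 6 and in 0 of 4 germline libraries, with medians of 26.6 in migDC2 and 37.2 in cDC2. Members in Tnfrsf1b, a receptor of tumour necrosis factor, and Il1rl1, the receptor of interleukin-33, were called in 4 and 3 of 6 DN migDC libraries and in 3 of 4 germline libraries each. The maturation and migration genes had 2 members in 563 regions (0.355%), near Pdcd1lg2, which encodes the checkpoint ligand PD-L2, and Spred1, an inhibitor of Ras signalling. The Pdcd1lg2 region had medians of 48.9 in migDC2 and 37.4 in 5 cDC2 libraries and was called in 5 of 6 DN migDC libraries.

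Chemokine and chemoattractant receptors had 2 members in 220 regions (0.909%). The region 24684 bp from Cxcr5 (chr9:44551128-44551574), the receptor for the follicle chemokine CXCL13, was called in 6 of 6 DN migDC, 0 of 4 germline migDC2, 6 of 6 migDC2 and 6 of 6 cDC2 libraries. Its percentile was 5.50 to 31.8 (median 24.2) in DN migDC, 3.52 to 25.8 (median 14.3) in migDC2 and 22.0 to 49.7 (median 42.4) in cDC2, so it was near the bottom of the migDC2 lists. The region near S1pr1, a receptor that guides exit from lymph nodes, was called in 1 of 6 DN migDC libraries. C-type lectins and pattern recognition receptors had 1 member in 238 regions (0.420%), that of Clec4a4. None of 118 regions at MHC class II genes and none of 192 at Langerhans and skin DC genes was a member. The background of 0.421% leaves little to find in lists of this size.

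Markers of other cells held members at 2 genes. Monocyte and macrophage markers had 1 member in 117 regions (0.855%), in Adgre1, which encodes F4/80, and stromal and epithelial markers 1 in 53 (1.89%), in Pdgfrb, a receptor of platelet-derived growth factor. Both were called in 6 of 6 DN migDC libraries, with Adgre1 in 0 and Pdgfrb in 2 of 4 germline libraries. Neutrophil (34 regions), plasmacytoid DC (106), T cell (68), B cell (63) and NK cell and ILC (47) markers had 0 members, where the background of 0.421% leaves little to find in lists of this size. What these regions do in other cells was not tested.

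The 331 members with a gene lay at 308 genes, of which 272 also had a region open in all 4 subsets. At 289 genes there was 1 member, at 16 genes 2, at Emilin2 and Aqp9 3 and at Myo1e 4. Emilin2 encodes a glycoprotein of the extracellular matrix, and 3 of its 13 regions were members. The region at chr17:71299755-71301181 was called in 0 of 6 DN migDC and 0 of 4 germline migDC2 libraries, and had 1.72 to 42.1 (median 15.7) in migDC2 and 41.6 to 78.1 (median 73.1) in cDC2. The one at chr17:71259564-71260912 was called in 1 of 6 DN migDC libraries, at 4.14, and had 17.7 to 41.9 (median 29.3) in migDC2 and 47.7 to 70.4 (median 64.7) in cDC2. The third, 504 bp from the gene at chr17:71250669-71251668, had medians of 17.9 in migDC2 and 43.7 in cDC2 and no call in DN migDC. All 3 were held by 6 of 6 cDC2 and at most 1 of 6 migDC2 libraries at equal length.

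Aqp9 encodes a channel for water and glycerol, and 3 of its 9 regions were members, all in the gene body within chr9:71160716-71167509. They were called in 2, 4 and 3 of 6 DN migDC and in 1, 0 and 1 of 4 germline libraries, and had medians of 30.9, 23.7 and 36.6 in migDC2 and 25.3, 43.1 and 54.4 in cDC2. Myo1e encodes a class I myosin that links membranes to actin, and 4 of its 27 regions were members, in the gene body between chr9:70211658 and chr9:70262163. They were called in 2, 4, 6 and 5 of 6 DN migDC libraries in genomic order, so regions of the same gene differed. Their medians were 15.3, 26.4, 50.7 and 40.3 in migDC2 and 23.3, 14.7, 34.6 and 48.1 in cDC2.

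At genes with 2 members the calls in DN migDC were in part alike and in part different. Of the Rab7 pair, which flanks a GTPase of late endosomes, the region at chr6:88056869-88057354 was called in 0 of 6 DN migDC and 3 of 4 germline libraries, and that at chr6:87992788-87993257 in 4 of 6 and 1 of 4. Gda had its start in 6 of 6 DN migDC libraries and a region 3677 bp away (chr19:21476338-21477242) in 5 of 6, both in 4 of 4 germline libraries. The region away from the start had 66.1 to 76.8 (median 72.7) in migDC2, 30.2 to 53.4 (median 42.8) in cDC2 and 14.5 to 45.0 (median 25.4) in DN migDC. Malt1 encodes the paracaspase of NF-kB signalling, and its member in the gene body (chr18:65477092-65478556) was called in 6 of 6 DN migDC and 4 of 4 germline libraries, with medians of 40.9 in DN migDC, 65.2 in migDC2 and 59.7 in cDC2. Pairs at Lox, a collagen cross-linking enzyme, Map3k20, a stress kinase, Rad51b, a DNA repair protein, Pnrc1, a nuclear receptor coactivator, and Usp38, a deubiquitinase, were called in 1 to 6 of 6 DN migDC libraries, and the regions of a pair differed by 0 to 2 libraries. A region in Bckdha, a subunit of the branched-chain ketoacid dehydrogenase, was strong in cDC2, with medians of 50.4 in migDC2 and 69.6 in cDC2, and was called in 4 of 6 DN migDC libraries.

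The germline migDC2 libraries are the same cell type from another cohort and held fewer of the members with all peaks. The KO libraries called 12% and 58.3% and the WT libraries 17.9% and 28.1%, beside 32.8% to 44.4% of all autosomal regions and 82.2% to 94.7% of the regions called in all 4 subsets. Of the members, 32 (8.56%) were called in all 4 and 150 (40.1%) in none, where the background is 31.1% and 54.1% of all autosomal regions. KO replicate 2 held the most of these calls, and without KO replicate 1, 54 members were called in all 3 remaining libraries. None of the 834 regions kept by the cDC1 lineage was called in any germline migDC2 library. At equal list length the germline share of the members, 12% to 25.9%, overlapped the 13.6% to 29.4% of the floxed migDC2 libraries.

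Whether a member was found outside the rule went with its strength in floxed migDC2. For members with a median migDC2 percentile from 20 to 40 (175 members), 54.6% of the calls possible in DN migDC and 15.1% of those in germline migDC2 were made. From 40 to 60 (113 members) the shares were 74.8% and 49.8%, and from 60 to 80 (25 members) 94.7% and 94.0%. Regions called in migDC2 but not in resident cDC2 gave 51.7% and 8.60% from 20 to 40, and 67.8% and 41.8% from 40 to 60. Regions open in all 4 subsets gave 96.4% and 33.5% from 20 to 40, and 99.2% and 78.4% from 40 to 60. In both groups of libraries and the bands from 20 to 80, the members' shares were above those of regions called in migDC2 but not in resident cDC2. There they were also under the shares of the regions of all 4 subsets. Under 20 the DN migDC share of the members (60 regions), 40.6%, was at the 40.9% of the regions called in migDC2 but not in resident cDC2. These shares carry no test.

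**Figure D5:**
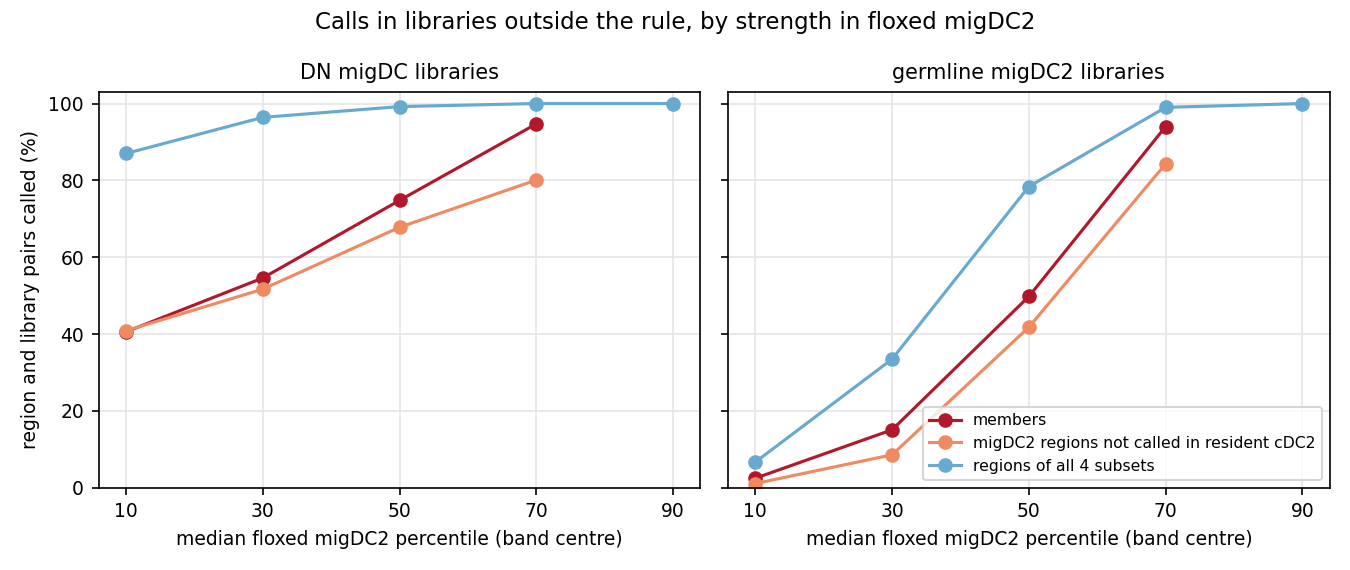
Percent of all region and library pairs called (vertical axis) in DN migDC (left) and germline migDC2 libraries (right), by the median percentile of the region in floxed migDC2 (bands of 20, bands with at least 20 regions). Members reach 94.7% and 94.0% in the band from 60 to 80 and lie under the regions of all 4 subsets in each band drawn.

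DN migDC and germline migDC2 were compared region by region, since the libraries of neither entered the rule. Floxed migDC2, the same cell type as germline migDC2, did enter it. For the members the comparison is therefore not independent of the rule. With all peaks and an exact test of the number of libraries with a call, adjusted by Benjamini-Hochberg, 5486 of 24711 regions tested (22.2%) were called more often in DN migDC and 0 less often (13132 and 5 at an unadjusted p under 0.05). Of the members, 211 were tested, and 25 passed, all more often in DN migDC, which is under the background share. All 25 were called in 6 of 6 DN migDC and 0 of 4 germline migDC2 libraries, the only pattern that passed, with an exact adjusted p of 0.0214. They include the regions of Adgre1 and Cxcr5, those in Utp14b, Fam78b and Arhgef3, and one without a gene at chr2:46370846-46371421. Without germline KO replicate 2, the library with the most member calls, 44 members passed. DN migDC lists were longer than germline lists, and cohort and list length cannot be told apart from subset here.

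In lists of equal length no region passed, and the direction of the unadjusted counts among members turned. Of the same regions, 0 of 7173 tested passed (smallest exact adjusted p = 0.0837), with 803 (11.2%) more often and 721 (10.1%) less often in DN migDC at an unadjusted p under 0.05. The exact test of 6 against 4 libraries cannot go below p = 0.00476. A region can therefore pass the adjustment only where many others separate fully too. The count of 0 thus cannot be read as a lack of difference. Among the 44 members tested, 1 was more often and 17 less often called in DN migDC by the unadjusted exact test. Members were chosen by calls in floxed migDC2, which may tilt this count towards germline migDC2, and this was not tested. Of all 374 members, 10 (2.67%) were held by 6 of 6 DN migDC libraries at this length, against 26.6% of all autosomal regions, and 314 (84.0%) by 0 of 6, against 56.9%. In germline migDC2, 26 members (6.95%) were held by 4 of 4 libraries, against 29.5% of all regions, and 257 (68.7%) by 0 of 4, against 61.5%.

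Loss of Ifngr1 in CD11c-expressing cells was compared over all 5 floxed subsets, with 14 Cre-positive and 14 Cre-negative libraries. By the exact stratified test with Benjamini-Hochberg adjustment, 0 of 60232 regions (0%) passed in either direction, with 53 more often and 98 less often called in Cre-positive libraries at an unadjusted p under 0.05. All 374 members were tested and 0 passed, and 0 had an unadjusted p under 0.05. The rule limited this test, since calls fixed at or near 6 of 6 and 0 of 6 leave little to compare. Only 8 members could have reached an unadjusted p under 0.05 at all. The smallest p open to any member in this exact test was 0.0125, while the smallest found over all regions, 0.0001, did not pass. No member could therefore have passed, and the count of 0 cannot be read as a lack of difference. Within DN migDC, 1 member, near Pnrc1 (chr4:33264944-33265634), was called in 3 of 3 Cre-positive and 0 of 3 Cre-negative libraries, a pattern of 0.0856% of all regions, and 0 members had the opposite pattern. In germline migDC2, 4 members were called in both KO and neither WT library, a pattern of 0.363% of all regions, and 0 the other way. These lay at Rnf149, Tns1, Isl2 and Ppargc1b. An exact test of 3 against 3 libraries cannot go below p = 0.1, so none was run within a subset.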

How the data were processed

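Accessible chromatin was measured by Omni-ATAC-seq in 32 libraries. Per the submitters' processing notes the authors used Bowtie2, deepTools and Genrich with build mm10; the sources used here do not give versions, settings or any shift of Tn5 cut sites. Each library has 1 deposited narrowPeak list. The deposited peak signal (at least 200.0 in each list) ranked peaks within a list, and the deposited −log10 p value ordered peaks of equal signal. Read counts are not part of these lists, so depth is unknown, and no interval or detection limit is given. A missing peak may be closed chromatin or may lie under the list's threshold.

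Consensus regions, calls and members were made in Python 3.11.15 as described above, with numpy, scipy and pandas. Genes were protein-coding RefSeq genes of GRCm38.p6 (21900, of which 17492 had a start in the promoter table); a region was assigned to a start within 1000 bp, else to the gene body holding its midpoint, else to the nearest gene within 50 kb. Which gene a region regulates is unknown. Groups follow the labels. Calls were compared between groups by a two-sided exact conditional test on library numbers (strata of subset for genotype; none for DN migDC against germline migDC2), over autosomal regions that 3 or more libraries had and 3 or more lacked, with Benjamini-Hochberg adjustment over all tested regions and a threshold of 0.05. The test was tested on simulated data.

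The members and the 18 gene lists were chosen with earlier results of these data known. Named were the 12 genes with most members, up to 6 genes with members per list, the 10 strongest members, the 5 strongest called in 6 of 6 and in 0 of 6 DN migDC libraries, and up to 5 per test and direction. Alternatives were other numbers of lists, overlaps, peak thresholds, membership limits, filters, strata and start distances, equal list length, and leaving out each library. Looking up the same regions in lists of equal length was added after the data were seen. Lilrb4b and Trac had no match.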

Additional observations from a re-analysis of the deposited data

Results flagged for a closer look

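The library of migDC1 Cre-negative replicate 1 stood apart from the other migDC1 libraries: it called 45.3% of all autosomal regions, against 59.0% to 60.9%. It was the only one found among 22 combinations of a group and a quantity examined (shares of members and of all regions called, the share at equal list length, and list length), and chance marks about 1 in 20 groups.

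On the X chromosome, which the rule leaves out, 3 of 1708 regions (0.176%) met the same criteria, at Bcor, Stag2 and Arhgap6.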

How the results depend on the processing

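The number of members, 374, became 119 under strict membership (all cDC2 and migDC2, no cDC1 and migDC1 library), all of them among the 374, and 780 under the loose form, which includes all 374. It was 370 with 2 lists, 387 with 5, 374 with any overlap, 473 with 50% of the region only, 259 above a signal of 500 and 425 at equal list length. Of the 374, 28 were overlapped by the 425 members rebuilt from equal lists and 45 by the 259. Leaving out a library gave 375 to 477. The median share per germline migDC2 library, 23.0%, was 85.1% for the 425 rebuilt members and 17.9% to 28.1% without a library. The median share per DN migDC library, 60.8%, was 56.8% to 63.9% without a library, 64.0% for the 425 rebuilt members and 7.89% for the 374 members in lists of equal length. DN migDC against germline migDC2 gave 0 regions and 0 members at equal list length and with the same regions in equal lists. It also gave 0 with lettered DN migDC libraries alone and with plain ones alone. With 4 lettered against 4 libraries few patterns can pass. With 2 plain against 4 none can, so that 0 was fixed in advance. Without 1 library it gave 5530 to 8194 regions and 25 to 44 members, and above a signal of 500 it gave 11 members. The genotype test gave 0 regions and 0 members under each of its 38 alternatives, including each left-out library. For members the rule left little room for another outcome. Members at a gene start were 7.75% with 2000 bp. The cause of these shifts was not tested. The motif search over whole members was not run, since no genome of the build was given. No paired analysis was possible because replicate numbers here follow accession order and only name libraries, title numbers differ between Cre-positive and Cre-negative libraries, and DN migDC and germline migDC2 come from mice of different genotypes. Without read counts, depth limits the reading of every missing peak.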
